A study of Rattus norvegicus with 24 samples.

Results

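The comparison described here asked whether dosing of the mother with a polychlorinated biphenyl (PCB) mixture shifted gene expression differently in the cerebellum than in the hippocampus of rat pups at postnatal day (PND) 7. It used 12 of the 24 arrays of the series, the PND7 ones, in 4 groups of 3. Pregnant Long-Evans rats received Aroclor 1254, a commercial PCB mixture, in corn oil by gavage at 6 mg/kg/day from gestation day 6 to PND7, and the undosed dams received 0 mg/kg/day by the same route. Litters were culled on PND4 to 4 pups of each sex, and 1 pup labelled male was taken per litter and age. The undosed dams were numbers 1, 7 and 13 and the dosed dams were numbers 12, 15 and 18. Each dam therefore gave 1 difference between tissues, and 3 such differences in dosed dams were compared with 3 in undosed dams. The dose was given to the dam, so the number of litters, not of pups, limits the precision.

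PCBs are persistent chlorinated compounds that reach the young through the placenta and milk. Some congeners bind the aryl hydrocarbon receptor, a ligand-activated transcription factor that drives xenobiotic-metabolising cytochrome P450 genes, and others act on ryanodine receptors and calcium handling, while exposure lowers circulating thyroid hormone. In the first postnatal weeks the rat cerebellum is still producing granule neurons from a dividing outer layer, and the hippocampus is forming synapses and finishing its dentate gyrus, so the tissues meet the exposure at different stages of development.

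All values are the authors' log2 expression levels per probe set, a set of short array probes for 1 transcript. The difference between tissues is the dosing effect (dosed minus undosed) in cerebellum minus the dosing effect in hippocampus, in log2 units. A positive value means that dosing went with relatively more signal in cerebellum or relatively less in hippocampus. A result is called when the limma p-value, adjusted by Benjamini-Hochberg over all 10032 probe sets tested, was under 0.05. Those probe sets covered 7296 genes.

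The labelled tissues held against their markers. Cbln1, Pcp2, Car8, Zic1 and Barhl1, genes of cerebellar neurons, were higher in every cerebellar array than in any hippocampal array, and Lhx2, Wfs1 and Prox1, genes of hippocampal neurons, were higher in every hippocampal array. Cbln1, for example, ranged from 11.18 to 11.33 in cerebellum and from 7.47 to 8.25 in hippocampus. Gabra6 and Emx2, 1 marker of each tissue, were too dim to be tested. Several arrays stood apart. Xist, an RNA of the inactive X chromosome of females, read 10.52 and 9.70 in the cerebellum and hippocampus of the pup of undosed dam 13, which was labelled male, and from 3.95 to 4.32 in the other 10 arrays. The spread of values over probe sets (SD) was lowest in the hippocampus of dosed dams 12 and 15, at 1.78 in each, against 1.82 to 1.89 in the other 10 arrays. The excess of 3' over 5' signal of hexokinase, a measure of RNA integrity, was 2.54 and 2.50 in the hippocampus of dosed dams 15 and 18, against 1.91 in that of dosed dam 12, 1.93 to 2.18 in undosed hippocampus and 1.55 to 1.70 in cerebellum. The part of these measures in the results below was not tested.

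The dosing effects of the tissues differed detectably for 2 of 10032 probe sets (0.0199%), for the bicarbonate transporter gene Slc4a10 and for 1 of the 2 probe sets of Aplp2, both with a positive difference. At an unadjusted p under 0.05 there were 1767 probe sets (17.6%), of which 1055 were positive (10.5%) and 712 negative (7.1%), and 120 had an adjusted p under 0.1. The dosing effects had an SD over probe sets of 0.12 in cerebellum and 0.16 in hippocampus. Their Pearson correlation over the 10032 probe sets, which share arrays and are not replicates, was -0.05.

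Slc4a10 encodes a sodium-driven bicarbonate exchanger of neurons that helps set intracellular pH. Its undosed values were 7.20, 7.41 and 7.23 in cerebellum and 8.42, 8.41 and 8.00 in hippocampus (dams 1, 7 and 13). Its dosed values were 7.64, 7.30 and 7.43 in cerebellum and 7.71, 7.45 and 7.55 in hippocampus (dams 12, 15 and 18). The hippocampal groups did not overlap, the dosed one being lower in every array, while the cerebellar groups overlapped. Within a dam, cerebellum minus hippocampus was -1.22, -1.002 and -0.78 without dosing and -0.07, -0.14 and -0.12 with dosing, so the gap between tissues was nearly closed in all 3 dosed dams. The difference between tissues was 0.89 ± 0.13 (SE, 3 dams against 3, limma adjusted p = 0.0491). It was made up of 0.18 ± 0.12 in cerebellum (adjusted p = 0.781) and a called fall in hippocampus, -0.71 ± 0.12 (adjusted p = 0.0299). The call lies close to the threshold and was lost in fits without 1 dam, with adjusted p = 0.15 without undosed dam 1, 0.096 without undosed dam 7, 0.0787 without dosed dam 15 and 0.0548 without dosed dam 18. The value stayed between 0.78 and 1.00 whichever dam was left out. Without the replicate block for dam the adjusted p of Slc4a10 was 0.0826, and with dam as a random block 0.069, so that its call, like that of Aplp2 below, rested on the fixed block. In pieces of tissue such as these, fewer cells of a type and less RNA per cell cannot be told apart.

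Aplp2 encodes a membrane protein of the amyloid precursor family. Its called probe set read 7.16, 7.13 and 7.27 in undosed cerebellum and 7.59, 7.29 and 7.86 in dosed cerebellum. In hippocampus it read 6.69, 6.71 and 6.80 without dosing and 6.402, 6.17 and 6.56 with dosing. The groups were apart in both tissues, in opposite directions. The difference between tissues was 0.74 ± 0.11 (adjusted p = 0.0491), with 0.39 ± 0.12 in cerebellum (adjusted p = 0.458) and -0.35 ± 0.12 in hippocampus (adjusted p = 0.139), neither called by itself. The other Aplp2 probe set was brighter, from 10.81 to 11.33 over the 12 arrays, and gave a difference of 0.03 ± 0.11 (adjusted p = 0.923). The probe sets of the gene disagreed, and which transcripts each one measures is not known here. Without the replicate block the adjusted p of Aplp2 was 0.101, and with a random block 0.0789. The call was also lost in each fit without 1 dam except that without dam 12, with adjusted p from 0.0548 without dam 18 to 0.15 without dam 1.

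The upstream sequences of both called genes are shown because the aryl hydrocarbon receptor, a known target of PCBs, binds the core motif GCGTG. They are the 250 bases before the annotated start, from RefSeq on build GRCr8, 5′ to 3′ on the strand of the gene, with GCGTG or its reverse complement CACGC in capitals. Slc4a10 lies at chr3:67073653-67073902 on the plus strand and Aplp2 at chr8:37920032-37920281 on the minus strand.
Slc4a10: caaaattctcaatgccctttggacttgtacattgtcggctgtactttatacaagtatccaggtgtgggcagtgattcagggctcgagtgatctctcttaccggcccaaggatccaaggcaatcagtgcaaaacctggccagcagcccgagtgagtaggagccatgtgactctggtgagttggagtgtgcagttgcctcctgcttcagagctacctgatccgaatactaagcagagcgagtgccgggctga
Aplp2: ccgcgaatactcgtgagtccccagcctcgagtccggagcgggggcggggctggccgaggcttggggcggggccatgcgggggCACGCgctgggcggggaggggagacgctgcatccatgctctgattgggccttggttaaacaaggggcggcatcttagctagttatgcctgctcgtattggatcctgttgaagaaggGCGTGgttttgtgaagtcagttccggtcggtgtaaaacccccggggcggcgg
The Slc4a10 window held neither GCGTG nor AGGTCA, a half-site of nuclear receptors, on either strand, and the Aplp2 window held 2 copies of GCGTG. The 2 motifs do not overlap in sequence. GCGTG occurred in 46.9% of the 6106 windows of genes tested and in 25.9% of all 33469 in the table, and AGGTCA in 10.1% and 14.1%. Among the genes named below with a window, GCGTG occurred in 4 of 10 with a positive and 4 of 9 with a negative difference, and AGGTCA in 0 of 10 and 2 of 9.

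**Figure D1:**
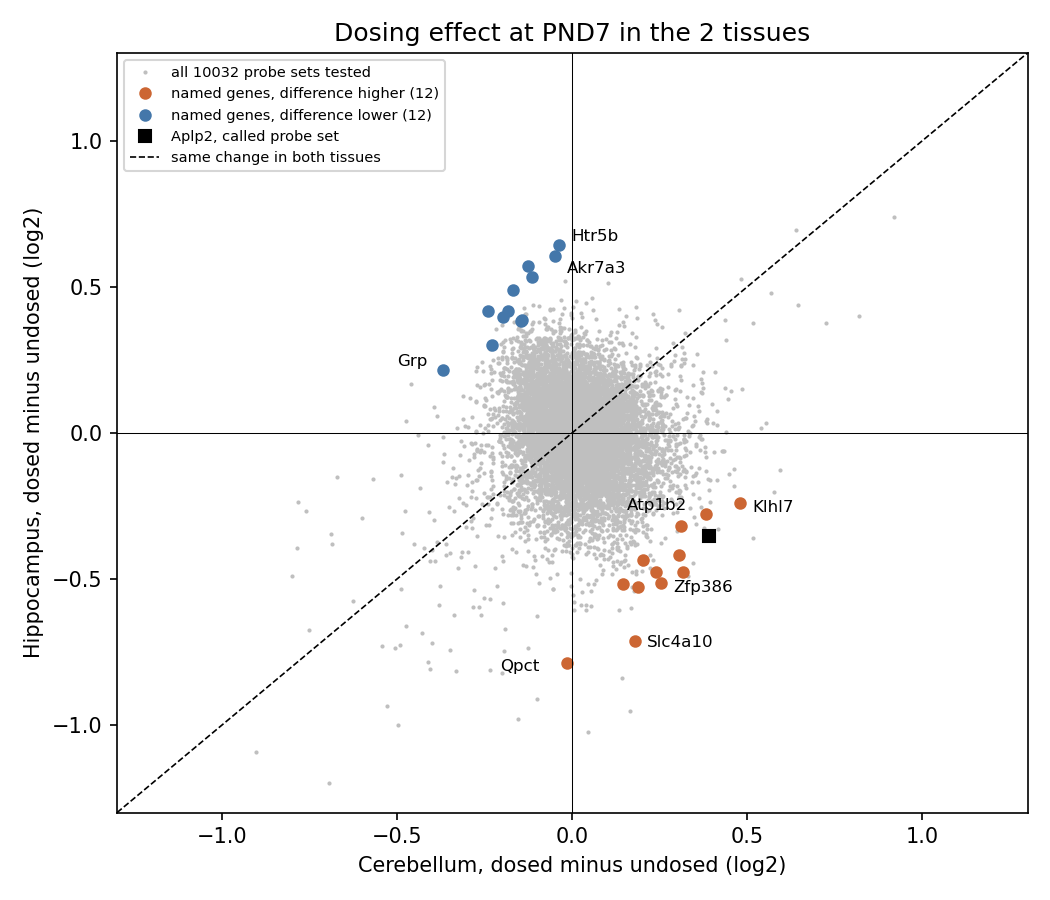
Dosing effect in cerebellum (x axis, log2) against that in hippocampus (y axis, log2) for all 10032 probe sets tested at PND7, each the mean of 3 dosed minus the mean of 3 undosed arrays. Distance from the dashed line is the difference between tissues, and the named genes lie where the tissues' effects have opposite signs or nearly so, most of them farther from 0 in hippocampus. Signs were opposite in 56.5% of all probe sets and in 91.6% of those with an unadjusted p under 0.05.

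The genes named next are the 12 in each direction that ranked first among those whose dosed and undosed dams did not overlap in the difference between tissues. They were chosen for that difference, so its size and p describe them and support nothing further. Non-overlap was common, at 12.3% of genes in the positive and 10% in the negative direction, and of the 24 only Slc4a10 was called (0.0137% of genes). All 24 have 1 probe set each. In 11 of the 12 positive and all 12 negative genes the tissues had opposite signs, and in 10 and 11 of them the larger effect was in hippocampus. Among probe sets with an unadjusted p under 0.05, signs were opposite in 90.7% of positive and 93% of negative ones, beside 56.5% of all tested. The larger effect was in hippocampus in 64.5% and 85.5% of these, beside 61.3% of all tested. Opposite signs are thus no trait of the named genes. In the test of hippocampus alone, 7 of the positive genes fell and 4 of the negative genes rose, beside 0.356% and 0.247% of all genes, and none was called in cerebellum. Dosed and undosed hippocampal arrays did not overlap in 11 of the 12 positive genes (dosed lower, 9.8% of all genes) and 12 of the 12 negative ones (dosed higher, 10.8%). In cerebellum this held for 9 (dosed higher, 10.3% of all genes) and 3 (dosed lower, 5.15%). These tests use the same arrays as the choice of the genes, so nothing is read from the shares. Htr5b, Akr7a3, Grp and Cacna1h were tested only because of their level in the 3 dosed hippocampal arrays, where they were high, and Qpct because of that in the 3 undosed ones. Their hippocampal effects are therefore a description.

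Beside Slc4a10, another gene of ion transport was among the 12 with a positive difference. Atp1b2 encodes a beta subunit of the sodium pump, abundant in glia. It read 8.997, 8.93 and 8.81 in undosed and 9.30, 9.35 and 9.24 in dosed cerebellum, and 9.58, 9.50 and 9.54 in undosed and 9.33, 9.23 and 9.22 in dosed hippocampus. The groups were apart in both tissues, so that dosed tissues were nearly level within a dam, at -0.03, 0.11 and 0.02, where undosed ones differed by -0.59, -0.56 and -0.73. The difference between tissues was 0.66 ± 0.11 (adjusted p = 0.0694), from 0.38 ± 0.07 in cerebellum (adjusted p = 0.388, the lowest of all probe sets there) and -0.28 ± 0.07 in hippocampus (adjusted p = 0.0795).

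Several of the positive genes have roles in signalling or protein turnover. Socs6, a suppressor of cytokine and receptor tyrosine kinase signalling, read 7.94, 7.90 and 7.84 in undosed and 8.18, 8.10 and 8.11 in dosed cerebellum, against 7.56, 7.83 and 7.63 and then 7.39, 7.01 and 7.18 in hippocampus. Its groups were apart in both tissues, and it fell in hippocampus (-0.48 ± 0.10, adjusted p = 0.0388), with a difference between tissues of 0.71 ± 0.13 (adjusted p = 0.0777). Kitlg, the ligand of the Kit receptor, had a difference of 0.72 ± 0.14 and stood at 8.68 to 8.85 in undosed and 8.88 to 9.03 in dosed cerebellum. In hippocampus Kitlg ran from 7.67 to 8.13 without and from 7.21 to 7.66 with dosing, so that the groups nearly touched. Klhl7, a substrate adaptor of a ubiquitin ligase, showed the largest cerebellar effect of the 12, 0.48 ± 0.14, and overlapping hippocampal groups. Uchl3, a ubiquitin hydrolase, had nearly equal and opposite effects of 0.31 ± 0.09 and -0.32 ± 0.09. Qpct, which cyclises N-terminal glutamine of peptides, had a cerebellar effect of -0.02 ± 0.15 and a hippocampal one of -0.79 ± 0.15 (adjusted p = 0.0366), from 7.89, 7.44 and 7.30 to 7.03, 6.64 and 6.61.

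The remaining positive genes act in transcription, RNA processing or the Golgi. Zfp386, a zinc finger gene, read 7.30, 7.47 and 7.40 in undosed and 7.75, 7.52 and 7.65 in dosed cerebellum, and 7.13, 7.03 and 6.99 then 6.64, 6.54 and 6.43 in hippocampus. It fell in hippocampus (-0.52 ± 0.08, adjusted p = 0.0299) and its difference between tissues was 0.77 ± 0.12 (adjusted p = 0.0623). Tmf1, a Golgi protein that also binds transcription factors, had a difference of 0.80 ± 0.14 and groups apart in both tissues, and it fell in hippocampus (-0.48 ± 0.09, adjusted p = 0.0388). Gtf2e2, a subunit of the general transcription factor TFIIE, and Resf1, a factor in silencing of retroelements, fell in hippocampus by 0.52 ± 0.10 and 0.43 ± 0.09 (adjusted p = 0.0388 and 0.0465). Tra2a, a splicing regulator, had effects of 0.30 ± 0.10 in cerebellum and -0.42 ± 0.10 in hippocampus, neither of them called.

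The genes with a negative difference had lower signal. The median level of the 12 was 7.17, against 7.68 for the positive 12 and 8.47 for all genes, where the filter on low values lay between 6.86 and 6.96. Htr5b encodes a serotonin receptor. It read 6.04, 5.78 and 5.94 in undosed and 5.82, 5.87 and 5.95 in dosed cerebellum, below the filter level in every cerebellar array, and 6.78, 6.93 and 6.76 in undosed and 7.30, 7.40 and 7.69 in dosed hippocampus. Only the 3 dosed and 1 undosed hippocampal arrays, 4 of the 12, lay above the filter level. Its hippocampal effect was 0.64 ± 0.10 (adjusted p = 0.0299), with groups well apart, and the difference between tissues was -0.68 ± 0.13 (adjusted p = 0.0777). Hhipl1, a relative of the hedgehog-interacting protein gene, read 8.00, 7.77 and 7.89 then 7.68, 7.79 and 7.64 in cerebellum and 7.75, 7.74 and 7.77 then 8.28, 8.21 and 8.03 in hippocampus. It rose in hippocampus (0.42 ± 0.08, adjusted p = 0.0388) with overlapping cerebellar groups. Cmtm7, a chemokine-like membrane protein, rose in hippocampus by 0.57 ± 0.11 (adjusted p = 0.0366), with a difference between tissues of -0.70 ± 0.16. Akr7a3, an aldo-keto reductase of aflatoxin detoxification, was above the filter level in the 3 dosed hippocampal arrays and in none of the other 9. Its hippocampal effect was 0.61 ± 0.10 (adjusted p = 0.0299) and its difference between tissues -0.66 ± 0.14.

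The remaining negative genes were not called in either tissue. Cacna1h, a low-voltage-activated calcium channel subunit, read 6.69, 6.67 and 6.77 in undosed and 7.01, 6.98 and 7.29 in dosed hippocampus, and from 5.46 to 5.69 in cerebellum. Of the 12 arrays, only the 3 of dosed hippocampus lay above the filter level for Cacna1h. Hapln4, a link protein of perineuronal matrix, had effects of -0.23 ± 0.08 in cerebellum and 0.30 ± 0.08 in hippocampus, with both tissues' groups apart. Grp, the gastrin-releasing peptide gene, differed mostly through cerebellum, where it read 5.90, 5.60 and 6.06 without and 5.45, 5.63 and 5.37 with dosing. Those cerebellar levels of Grp lie below the filter level and its undosed and dosed ranges overlapped slightly, at 5.60 and 5.63. Barhl1, a granule neuron transcription factor, stayed at 9.03 to 9.41 in cerebellum and read 6.34, 6.50 and 6.55 in undosed and 7.32, 6.85 and 6.82 in dosed hippocampus. Barhl1 was tested because of its cerebellar level. In hippocampus only 1 dosed array lay above the filter level, so its difference is between values near background. Miox, Umod, RT1-A and Loricrin had differences of -0.60 ± 0.13, -0.66 ± 0.14, -0.66 ± 0.14 and -0.53 ± 0.12.

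**Figure D2:**
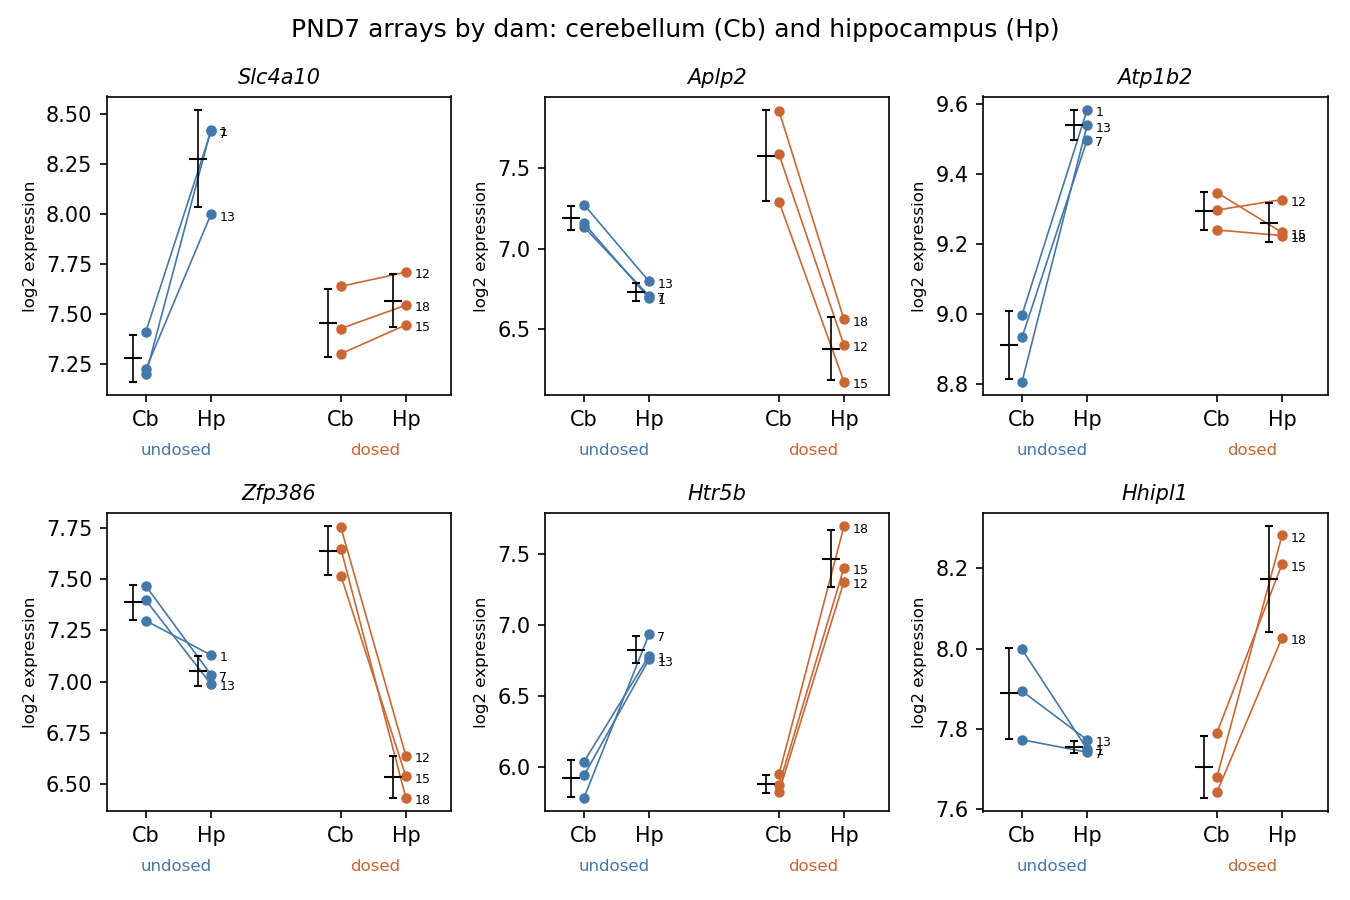
Log2 expression at PND7 by tissue (Cb, cerebellum and Hp, hippocampus) for Slc4a10, the called Aplp2 probe set, Atp1b2, Zfp386, Htr5b and Hhipl1. Each line joins the tissues of 1 dam, dam numbers stand at the right of each line, and black bars show the mean ± SD of 3 arrays. The steep undosed lines of Slc4a10 and Atp1b2 are nearly flat in the dosed dams.

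**Figure D3:**
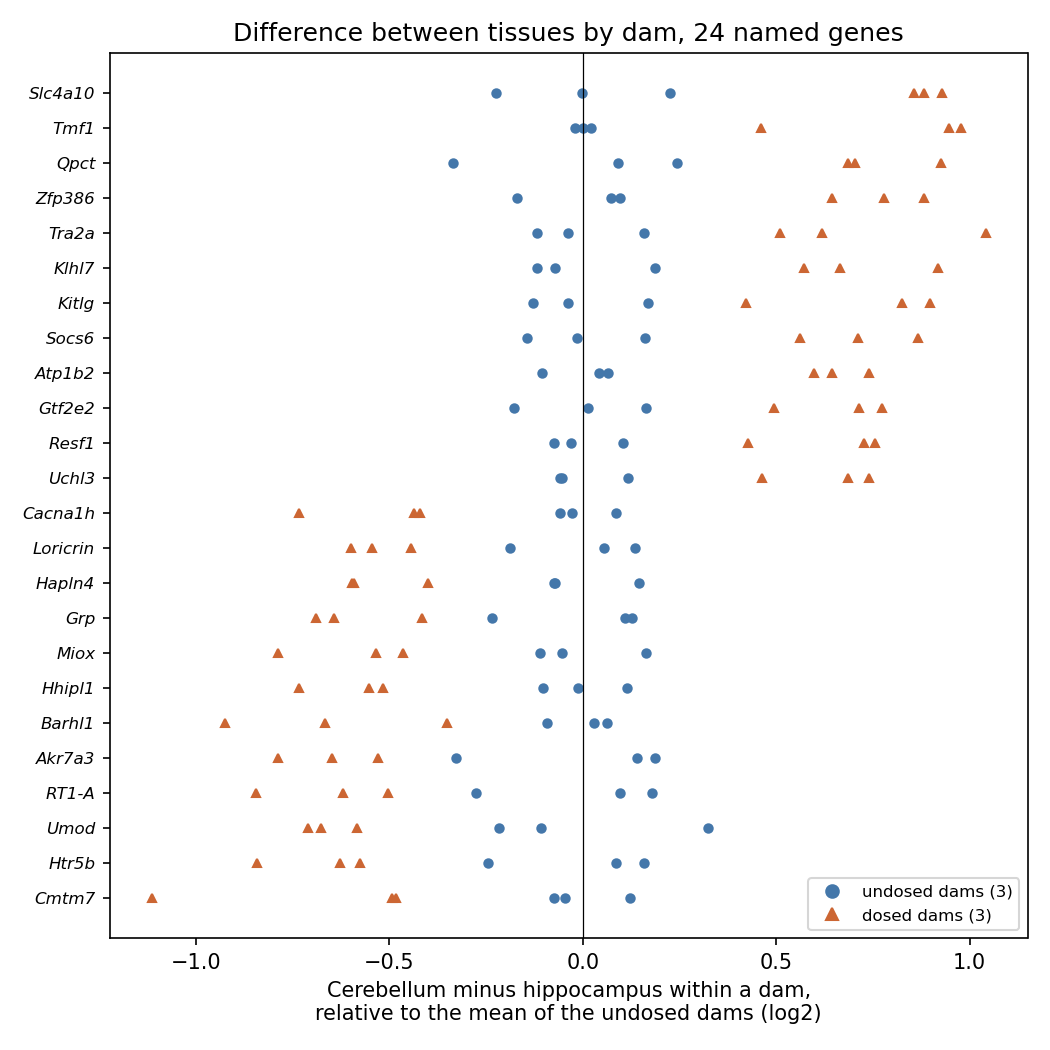
Cerebellum minus hippocampus within each dam, relative to the mean of the 3 undosed dams (x axis, log2), for the 24 named genes. Circles are undosed and triangles dosed dams, and by the rule that chose the genes the groups do not overlap in any row. The 12 genes with a positive difference have their dosed dams to the right and the other 12 to the left.

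The difference varied with the level of a gene. The 7296 genes were put in 5 groups of equal size by mean level. The median difference was -0.06 in the dimmest group (levels of 5.77 to 7.52) and 0.07 in the brightest (9.55 to 13.28). In hippocampus alone these medians were 0.06 and -0.04, and in cerebellum -0.01 and 0.02. After quantile normalization, which gives every array 1 common distribution, the median differences of the 5 groups lay between -0.023 and -0.005. The genes named with a negative difference, at a median level of 7.17, lay on the dim side. The named differences ran from 0.63 to 0.89 and from -0.70 to -0.53, and none of the 24 changed sign under any alternative in which it was tested. The 24 were chosen with dosed and undosed dams apart, so leaving out dams could not turn a sign. The block and variance prior settings leave the value itself unchanged, so nothing is read from these steady signs.

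In hippocampus alone 67 probe sets were called (0.668%), 23 of which rose (0.229%) and 44 fell (0.439%), and 1939 (19.3%) had an unadjusted p under 0.05. Among those that rose, Htr5b, Akr7a3 and Apob were tested only because of their level in the 3 dosed hippocampal arrays. Their calls are therefore a description, and the count that rose includes them. The median effect of those that rose was 0.41 in hippocampus and -0.02 in cerebellum, and of those that fell -0.48 and 0.03. Opposite signs in the tissues were found in 14 of the 23 and 26 of the 44, beside 56.5% of all 10032 probe sets. These counts lie near that share, so nothing is read from them. The difference between tissues had an unadjusted p under 0.05 in 22 of the 23 and 40 of the 44, beside 17.6% of all. The called probe sets were chosen by their hippocampal values, which also enter the difference. The call count rested on single litters, with 0 calls without undosed dam 1 or undosed dam 7, 15 without dam 13, 39 without dam 12, 8 without dam 15 and 150 without dam 18. In a fit of the 6 hippocampal arrays alone, 1 was called.

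Of the named genes with lower values in dosed hippocampus, Qpct was described above. Lum, a proteoglycan of connective tissue, read 7.02, 6.79 and 6.53 without and 6.00, 5.57 and 5.84 with dosing in hippocampus, and 6.77 to 7.09 then 6.70 to 6.96 in cerebellum. It fell by 0.98 ± 0.13 in hippocampus (adjusted p = 0.0164), with groups well apart, and its difference between tissues was 0.83 ± 0.17 (adjusted p = 0.0816). In hippocampus Lum lay above the filter level in 1 undosed and 0 dosed arrays, so the size of its fall is measured largely below that level. Cdkn1c, a cyclin-dependent kinase inhibitor, fell by 1.20 ± 0.26 in hippocampus (adjusted p = 0.0463) and had an effect of -0.69 ± 0.26 in cerebellum (adjusted p = 0.524), so that its difference of 0.51 ± 0.29 was not called. Pgpep1, a peptidase that removes pyroglutamate from peptides, fell from 8.15, 8.16 and 7.72 to 7.00, 6.97 and 7.33 in hippocampus and had an effect of -0.10 ± 0.14 in cerebellum. Nr2f2, a nuclear receptor of vessels, interneurons and mesenchyme, fell by 0.81 ± 0.16 (adjusted p = 0.0366).

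The other genes named for higher values in dosed hippocampus, beside Htr5b, Akr7a3 and Cmtm7, were Pcp2 and Tspan18. Pcp2 is a Purkinje cell gene, and at 6.19 to 6.29 without and 6.49 to 6.95 with dosing its hippocampal signal was far under the 10.75 to 11.11 of cerebellum. Pcp2 was tested because of its cerebellar level, and its hippocampal values lay below the filter level or, in 1 array, at it, so that the effect of 0.51 ± 0.11 (adjusted p = 0.0465) is between values near background. Tspan18, a tetraspanin of endothelium, rose by 0.45 ± 0.09 (adjusted p = 0.0395) and had an effect of 0.01 ± 0.09 in cerebellum.

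In cerebellum alone, limma called 0 of 10032 probe sets, and 769 (7.67%) had an unadjusted p under 0.05, 560 of them higher (5.58%) and 209 lower (2.08%) with dosing. The named cerebellar genes beside Atp1b2 were the following. Kif3a, a kinesin of cilia and axons, had an effect of 0.40 ± 0.08 in cerebellum and 0.10 ± 0.08 in hippocampus. Grin2d, an NMDA receptor subunit of early development, read 6.49, 6.63 and 6.15 without and 7.24, 6.98 and 6.78 with dosing in cerebellum, groups that were apart, and its difference between tissues was 0.78 ± 0.18 (adjusted p = 0.0816). Gucy1b1, a subunit of the nitric oxide receptor, had effects of 0.39 ± 0.09 and -0.20 ± 0.09, and Coq10b, of coenzyme Q function, 0.55 ± 0.12 and 0.03 ± 0.12. On the lower side, Mmp2, a matrix metalloproteinase, had -0.57 ± 0.14 and -0.16 ± 0.14, and Serping1, an inhibitor of complement, -0.34 ± 0.08 and -0.15 ± 0.08. Srebf1, a regulator of lipid synthesis, had -0.31 ± 0.08 and 0.02 ± 0.08, Sapcd1 -0.39 ± 0.10 and 0.09 ± 0.10, and Hsd17b8 -0.28 ± 0.07 and 0.10 ± 0.07.

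For the dosing effect averaged over the tissues of each dam, limma called 0 of 10032 probe sets, with 0.0729 as the lowest adjusted p. An unadjusted p under 0.05 was found for 938 (9.35%). The named genes of this average had the same sign in both tissues. Ccdc92 had effects of 0.32 ± 0.07 in cerebellum and 0.24 ± 0.07 in hippocampus, and Siah2, a ubiquitin ligase of the hypoxia response, 0.36 ± 0.09 and 0.27 ± 0.09. Slc6a13, a GABA transporter of the meninges, had -0.40 ± 0.14 and a called fall of -0.72 ± 0.14 (adjusted p = 0.0366). Igfbp2, a carrier of insulin-like growth factors, had -0.30 ± 0.14 and -0.41 ± 0.14. Unc5b, a netrin receptor, had 0.15 ± 0.12 and 0.37 ± 0.12, Gtf2h3, of the transcription and repair factor TFIIH, 0.19 ± 0.09 and 0.39 ± 0.09, and Apob, an apolipoprotein gene, 0.06 ± 0.08 and 0.42 ± 0.08 (adjusted p = 0.0366), the latter tested only through the dosed hippocampal arrays.

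The following gene lists are described by counts and medians beside all 7296 genes, of which 55.2% had a positive difference, with a median of 0.02, and of which 9.57% were positive and 6.83% negative at an unadjusted p under 0.05. Apart from Slc4a10, no member of a list was called in the difference between tissues.

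Genes of GABA and glycine transmission, the inhibitory transmitters, had the highest median difference of the 30 lists, 0.29, with 14 of 16 positive. The list's median was 0.11 in cerebellum and -0.15 in hippocampus, and its median difference stayed positive, from 0.14 to 0.39, in all 13 alternatives. In the test of hippocampus alone 1 member was called, Slc6a13, which fell (-0.72 ± 0.14, adjusted p = 0.0366). Slc6a13 is also counted below among the genes of meninges and fibroblasts. The cerebellar part came mostly from dosed dam 12, where the mean log2 level of the list was 8.535. It was 8.3 and 8.346 in dosed dams 15 and 18 and 8.274 to 8.325 in undosed cerebellum. Of the members, 7 were positive at an unadjusted p under 0.05 and 1, the glycine transporter Slc6a9 (-0.30 ± 0.12), was negative. Glrb, the beta subunit of the glycine receptor, read 6.59, 7.07 and 6.91 then 7.57, 6.93 and 7.17 in cerebellum and 7.81, 8.08 and 8.04 then 7.86, 7.33 and 7.98 in hippocampus. The Glrb groups overlapped in each tissue and were apart as differences within dams, with a difference of 0.62 ± 0.14 (adjusted p = 0.0816). Gphn, which encodes gephyrin, the scaffold that anchors these receptors, had 0.47 ± 0.12, and the GABA-A receptor subunit Gabrg1 had 0.49 ± 0.12. Gad2, a GABA-synthesising enzyme, had 0.36 ± 0.14, with effects of -0.02 ± 0.10 in cerebellum and -0.38 ± 0.10 in hippocampus. Of 10 interneuron genes, 6 were positive with a median of 0.07, and that median turned negative without dam 12.

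Genes of the sodium pump and ion transport had a median difference of 0.15 (0.041 to 0.209 over 13 alternatives), with 13 of 20 positive, 5 positive and 1 negative at an unadjusted p under 0.05, and Slc4a10 as the called member. Slc4a4, a sodium bicarbonate cotransporter of glia, had 0.47 ± 0.16 (adjusted p = 0.164) and the sodium channel Scn2a 0.38 ± 0.18 (adjusted p = 0.278). The related beta subunits Atp1b1 and Atp1b3, added outside the naming rule, had 0.20 ± 0.15 and -0.07 ± 0.13, beside the 0.66 of Atp1b2.

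Calcium signalling genes, tested for the known action of PCBs on calcium, had a median difference of -0.03, with 18 of 48 positive. At an unadjusted p under 0.05, 6 of the 48 were positive and 2 negative. Camk2d, a calcium-dependent kinase, had 0.63 ± 0.18 (adjusted p = 0.131), nearly all of it in hippocampus (-0.59 ± 0.15), and its dams overlapped. Among glutamate receptor and postsynaptic genes 22 of 38 were positive with a median of 0.02, close to the 0.02 of all genes.

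Genes of the response to xenobiotics through the aryl hydrocarbon receptor had a median difference of -0.15, with 3 of 10 positive. Cyp1a2, a classic target of the receptor, read 7.21, 7.13 and 7.00 then 6.82, 6.99 and 6.93 in cerebellum and 7.00, 7.27 and 7.31 then 7.59, 7.58 and 7.32 in hippocampus, a difference of -0.51 ± 0.15 (adjusted p = 0.131). In dosed cerebellum Cyp1a2 lay near the filter level, which was 6.87 to 6.92 in cerebellar arrays. The receptor gene Ahr had -0.35 ± 0.13 (adjusted p = 0.183). Ahr read 6.53 to 6.83 in cerebellum, below the filter level in every array, and 6.65 to 7.18 in hippocampus, partly below it. The Ahr difference is therefore between values near background. Tiparp, another target, had the opposite sign, 0.29 ± 0.13 (adjusted p = 0.266). Cyp1a1, the most used marker of receptor activation, was below the filter, with 6.05 to 6.395 in cerebellum and 6.21 to 6.69 in hippocampus. For genes of oxidative stress 10 of 18 were positive with a median of 0.01, and catalase (Cat) had 0.48 ± 0.11 (adjusted p = 0.0951).

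Genes that respond to thyroid hormone had a median difference of -0.07, with 7 of 24 positive, and medians of 0.05 in cerebellum and 0.06 in hippocampus. The list's median difference was positive without dam 7. At an unadjusted p under 0.05, 2 of the 24 were positive and 3 negative. Pcp2, which is also a Purkinje gene, had -0.41 ± 0.14, Thrsp, a thyroid-responsive gene of lipid synthesis, -0.41 ± 0.18, and Srebf1 -0.33 ± 0.12, while L1cam, an adhesion molecule of axons, had 0.33 ± 0.13. Immediate early genes, which mark recent neuronal activity, had a median of -0.03, yet 4 of 15 were negative and 0 positive at an unadjusted p under 0.05. Nr4a1 had -0.50 ± 0.15 (adjusted p = 0.145), Arc -0.47 ± 0.14 (adjusted p = 0.142) and Junb -0.39 ± 0.12 (adjusted p = 0.153), each with lower values in dosed than undosed cerebellum on average and higher ones in dosed hippocampus. Dusp1 of the same list had 0.35 ± 0.18, the other sign.

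**Figure D4:**
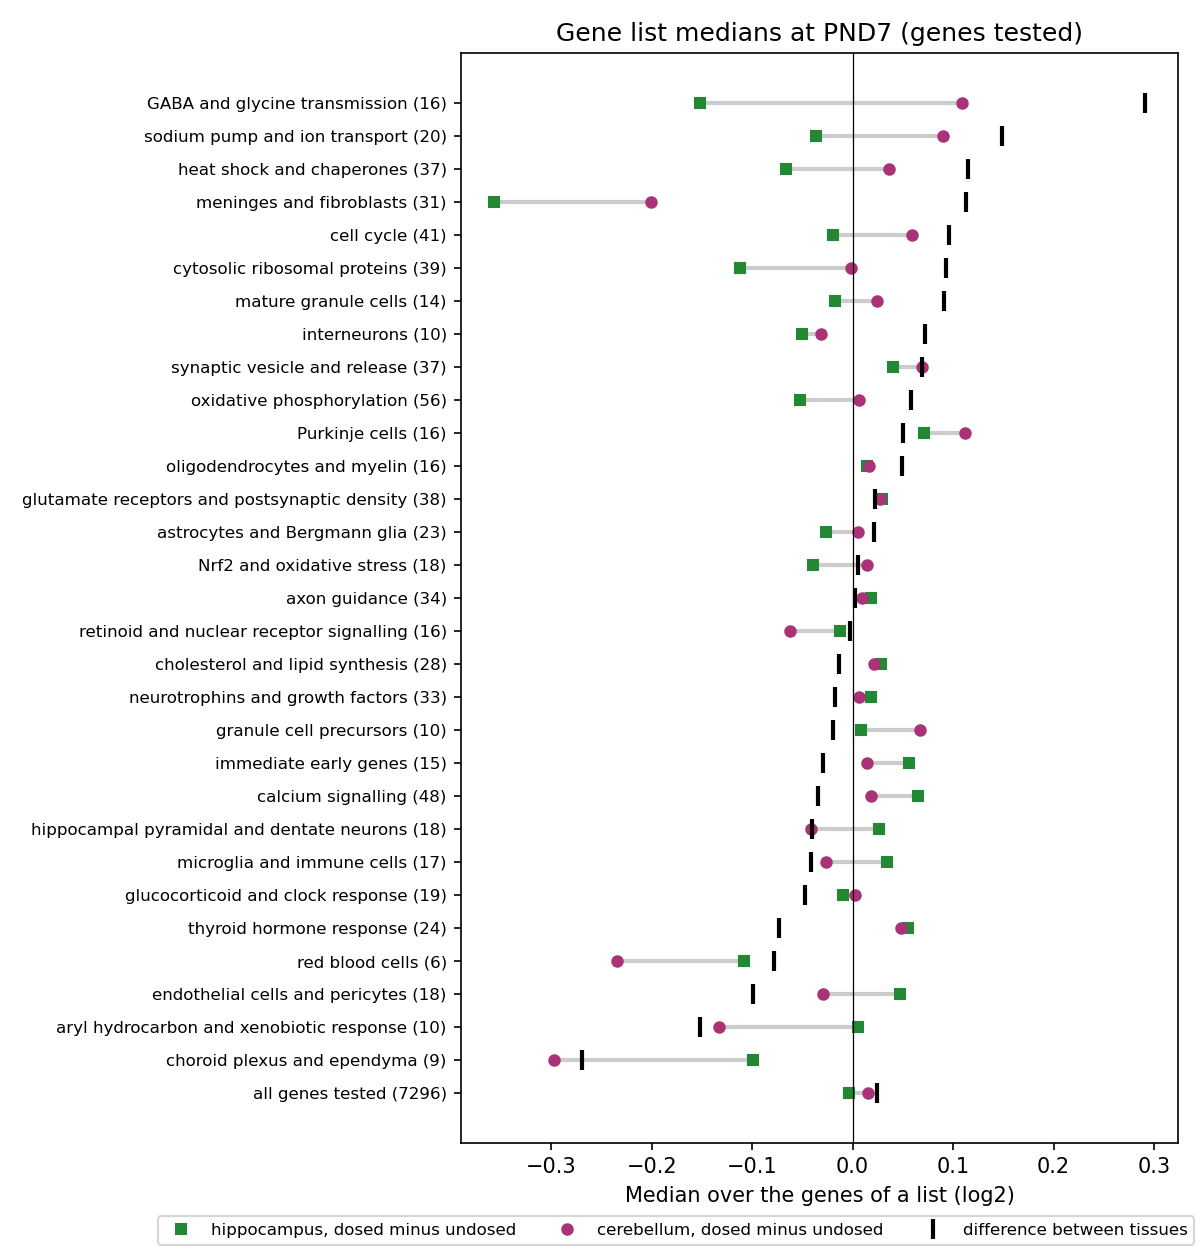
Median dosing effect at PND7 over the tested genes of each list (x axis, log2) in hippocampus (squares) and cerebellum (circles), with the median difference between tissues as a bar. The number of genes tested stands in brackets. GABA and glycine genes show the widest gap, choroid plexus genes the lowest difference, and meningeal genes lie below 0 in both tissues.

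Among housekeeping groups, 36 of 39 cytosolic ribosomal protein genes had a positive difference, with a median of 0.09, 0.00 in cerebellum and -0.11 in hippocampus. At an unadjusted p under 0.05, 3 were positive, namely Rpl5 with 0.31 ± 0.11, Rpl11 with 0.25 ± 0.11 and Rps23 with 0.24 ± 0.11, and 11 of 39 had dams that did not overlap, beside 12.3% of all genes. Rpl5, Rpl11 and Rps23 read 11.13 to 12.98, in the brightest of the 5 groups of genes by level, whose median was 0.07. Heat shock and chaperone genes had 29 of 37 positive and a median of 0.12 (0.015 to 0.168 over 13 alternatives). The chaperones of the endoplasmic reticulum Dnajb9 and Hspa5 had 0.40 ± 0.13 and 0.38 ± 0.15, while the stress-induced Hspa1a had -0.33 ± 0.11 and Hspb6 -0.40 ± 0.12. Cell cycle genes had 26 of 41 positive and a median of 0.10, and oxidative phosphorylation genes 40 of 56 and 0.06, a median that turned negative without dams 12 and 15. For axon guidance the counts were 18 of 34 with a median of 0.00, with L1cam at 0.33 ± 0.13 and Sema6c at -0.30 ± 0.12.

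Of all 7296 genes, 3189 were lower with dosing in cerebellum and 3718 in hippocampus. Of 31 genes of meninges and fibroblasts, 31 were lower with dosing in cerebellum and 27 in hippocampus, with medians of -0.20 and -0.36 and a median difference of 0.11. In the test of hippocampus, 4 of them fell, Lum, Nr2f2, Slc6a13 and Dcn (-0.52 ± 0.09, adjusted p = 0.0318), beside 0.356% of all genes. The summed level of the list ran from 14.17 to 14.54 in undosed and from 13.59 to 14.04 in dosed hippocampus, which did not overlap, and from 14.42 to 14.69 and 14.04 to 14.50 in cerebellum, which did. The median difference was negative without dam 1 and without dams 12 and 15 together. The summed level of choroid plexus and ependyma genes ran from 13.44 to 13.99 in undosed and 12.56 to 13.52 in dosed cerebellum, and these genes were lower there in 9 of 9 and had a median difference of -0.27 (-0.477 to -0.03 over 13 alternatives), with none at an unadjusted p under 0.05. In hippocampus 6 of the 9 were lower, and their summed level ran from 11.54 to 13.48 without and from 11.29 to 13.07 with dosing, which overlapped. Ttr, the transthyretin gene that defines choroid plexus, ranged from 8.79 to 12.84 in undosed and from 7.44 to 12.53 in dosed hippocampus, so that arrays of 1 group differed far more than the dosing effects described here, and its difference was -0.08 ± 0.98. Of 6 red blood cell genes, 5 were lower with dosing in cerebellum and 4 in hippocampus. Their median difference was -0.08, with 2 positive and 4 negative. The haemoglobin gene Hbb, 1 of the 2 positive ones, had effects of -0.43 ± 0.18 and -0.68 ± 0.18. The mean log2 level of the 6 genes overlapped in hippocampus, with undosed dam 1 at 8.897 and dosed dam 15 at 8.942. Their summed level, which weights bright genes, ran from 12.49 to 12.83 in undosed and from 11.94 to 12.40 in dosed hippocampus, which did not overlap. In cerebellum the red cell sum ran from 12.89 to 13.29 without and from 12.49 to 13.07 with dosing, which did. The part of these cells in the differences of Lum, Nr2f2, Slc6a13 and other genes was not tested.

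Mature granule cell genes had 10 of 14 positive with a median of 0.09 and 0 at an unadjusted p under 0.05. Granule cell precursor genes had 4 of 10 positive with -0.02. At an unadjusted p under 0.05, 4 of the 10 were positive and 1 negative, beside 9.57% and 6.83% of all genes. The positive ones were Sfrp1 (0.53 ± 0.15), Pax6 (0.43 ± 0.14), Neurod1 (0.38 ± 0.15) and Mycn (0.35), the last added outside the naming rule. Barhl1 was the negative one, through hippocampal values near background. Dams did not overlap in 4 positive members and 1 negative member, beside 12.3% and 10% of all genes. Purkinje cell genes had 10 of 16 and 0.05. Hippocampal pyramidal and dentate genes had 7 of 18 and -0.04, with Spock1 at 0.55 ± 0.13 and Dkk3 at -0.38 ± 0.11. Oligodendrocyte and myelin genes had 9 of 16 and 0.05, and Cldn11, a tight junction gene of myelin and meninges, had 0.61 ± 0.27. Astrocyte genes had 15 of 23 and 0.02, with Hopx at 0.41 ± 0.12 and Ntsr2 at -0.33 ± 0.12. Endothelial and pericyte genes had 5 of 18 positive and a median of -0.10, and microglial and immune genes 6 of 17 and -0.04, with Cx3cr1, the fractalkine receptor of microglia, at -0.32 ± 0.12 and Cd48 at 0.79 ± 0.24. Synaptic vesicle genes had 23 of 37 positive and 0.07.

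The other lists also lay close to 0 in the median difference between tissues. Several medians changed sign with scaling: that of the astrocyte, axon guidance, glutamate receptor, oxidative stress and oligodendrocyte lists turned negative with quantile normalization, and that of the cholesterol and retinoid lists changed sign with median centring. Neurotrophin and growth factor genes had 14 of 33 positive and a median of -0.02, with Ntrk2, the BDNF receptor gene, at 0.40 ± 0.12. Cholesterol and lipid synthesis genes had 13 of 28 and -0.01, and Idi1, an enzyme of isoprenoid synthesis, stood at 0.53 ± 0.11 (adjusted p = 0.0816). Glucocorticoid and clock genes had 8 of 19 and -0.05, and retinoid and nuclear receptor genes 8 of 16 and 0.00. The summed level of the retinoid list was lower with dosing in both tissues, without overlap. It ran from 12.08 to 12.09 without and 12.00 to 12.06 with dosing in cerebellum, and from 12.26 to 12.32 and 12.17 to 12.21 in hippocampus. Of its 16 genes, 11 were lower with dosing in cerebellum and 9 in hippocampus, with medians of -0.06 and -0.01.

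The same contrast was then computed at PND14 in pups of the same dams, dosed to PND14. Dam 13 was left out because its cerebellar PND14 array was known from earlier results of these data to stand apart. That array read 7.27 for Xist, where the hippocampal PND14 array of dam 13 read 4.31. No probe set was called by limma (0 of 9991), and 174 (1.74%) had an unadjusted p under 0.05. Of the 24 named genes, 22 were tested at PND14 and 20 of them had the sign opposite to PND7. On the positive side 10 of 11 were negative at PND14, with a median of -0.15, and on the negative side 10 of 11 were positive, with a median of 0.12, none at an unadjusted p under 0.05. Of all 7146 genes tested at both ages, 4428 were negative and 2718 positive at PND14, with a median of -0.04. Slc4a10 had -0.06 ± 0.19 at PND14, Atp1b2 -0.12 ± 0.14, and Klhl7 the lowest value, -0.40, while Htr5b had 0.08 ± 0.16. Over the 9804 probe sets tested at both ages the correlation of the contrasts was -0.30, a description over probe sets that share arrays and litters. That relation rested mostly on dam 1, whose PND14 arrays read 10.76 and 8.98 for Xist: without its PND14 arrays the correlation was -0.02 and 12 of 21 named genes had opposite signs. Without the PND14 arrays of dam 15 the correlation was -0.19, with opposite signs in 14 of 21. Without those of dam 18 it was -0.22, with opposite signs in 16 of 22. With dam 13 included, limma again called 0 probe sets.

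**Figure D5:**
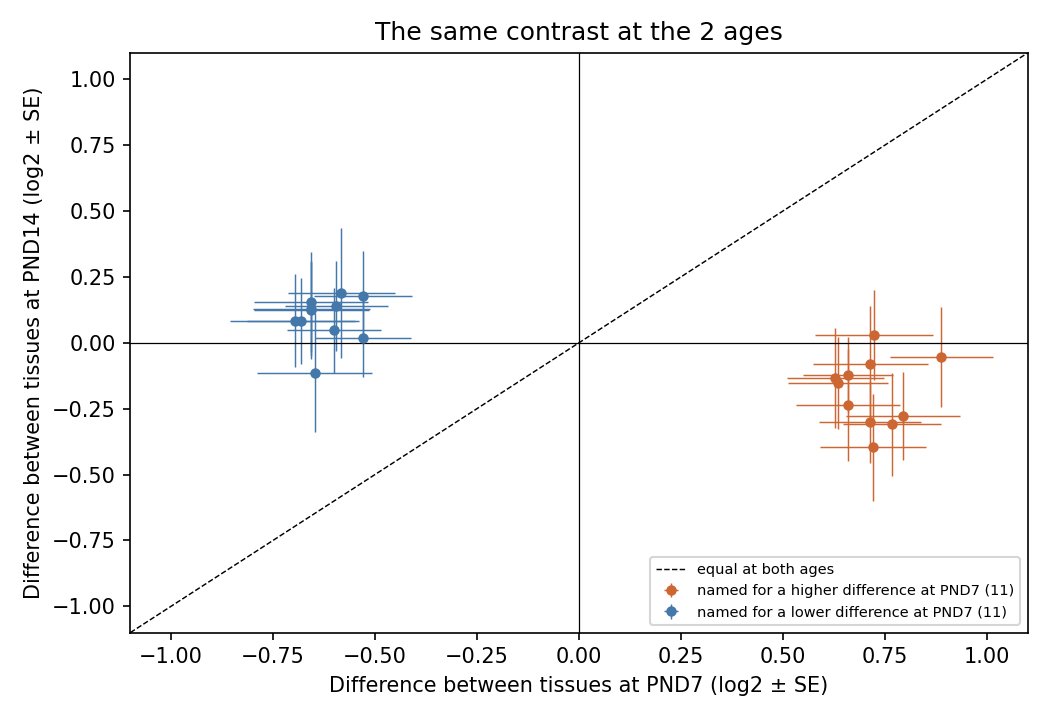
Difference between tissues at PND7 (x axis) and PND14 (y axis), both in log2 with SE, for the 22 named genes tested at both ages. The points lie between -0.40 and 0.19 at PND14, off the dashed line of equal values, and none had an unadjusted p under 0.05 at PND14.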

How the data were processed

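RNA from cerebellum and hippocampus was labelled with biotin and hybridised to Affymetrix rat arrays, per the labels' protocols. The deposited values are log2 expression levels per probe set as the authors processed them, and the method of background correction, summary and normalization is not given in the sources used here. Array medians at PND7 lay between 7.435 and 7.483, so values were used as deposited. Of 15923 probe sets, 57 controls were removed, and a probe set was tested where 3 or more arrays of the fit placed it over their 40th percentile. Symbols came from GEO's platform annotation (1 symbol for 12783 probe sets, several for 312, none for 2771), of which 12748 matched RefSeq. A gene was represented by its probe set with the highest mean.

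The difference between tissues was fitted with limma 3.58.1 in R 4.3.3, with the dam number as a fixed block, since the labels name the mother and thereby pair the tissues. Deviations of the tissues of a dam correlated with a median r of 0.20 (-0.06 to 0.30). For 4 dams the cerebellum matched the hippocampus of its own dam best, and for dams 1 and 12 it did not. The consensus correlation within dams, which the random block used, was only 0.04. Effects in 1 tissue used 1 mean per group over the 12 arrays, and the average used dam means. Tests were 2-sided with Benjamini-Hochberg adjustment. Named genes were the 12 per direction (5 for single effects) called by size, filled by p, whose dams did not overlap, and up to 4 members per list with the largest differences. The members and lists were chosen with earlier results of these data known. The script was tested on simulated data. Alternatives covered normalization, filter, variance prior, block, arrays and each dam left out.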

Additional observations from a re-analysis of the deposited data

Results flagged for a closer look

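The test of the difference between tissues itself picked out Slc4a10, at 0.89, and 1 probe set of Aplp2, at 0.74, where dosing went with different changes in cerebellum and hippocampus. The brighter Aplp2 probe set, at 0.03, did not show it. Slc4a10 was positive in all 17 alternatives (0.78 to 1.00) and called in 7 of them, and the Aplp2 probe set was positive in all 16 in which it was tested (0.70 to 0.85) and called in 5. Both were picked by this same difference, so their steady signs add no support.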

How the results depend on the processing

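The count of probe sets with a called difference between tissues at PND7 (2) was 4 with quantile normalization or median centring, 3 without a filter, 1 with a stricter filter, 0 with an intensity trend in the variance prior, and 0 to 8 with 1 dam left out. Without the replicate block it was 0, with all 24 arrays 0, with 23 arrays 0, and without dams 12 and 15 (chosen after seeing the data) 0. With a random replicate block it was 2, of which 0 were Slc4a10 or Aplp2. Leaving out dam 13, whose pup went against its labelled sex, gave 1. For the dosing effect in hippocampus at PND7 the count (67) was 299 without a filter, 21 with a stricter one, 0 to 150 with 1 dam left out, 4 without dams 12 and 15 and 1 with only the 6 arrays compared. In cerebellum (0) it was 0 to 2 with 1 dam left out. The average over tissues (0) gave 3 with a stricter filter, 4 with an intensity trend, 3 with robust empirical Bayes and 0 to 16 with 1 dam left out. At PND14 (0) it was 0 to 1 with 1 dam left out, and 0 with dam 13 or without the replicate block. Signs of the difference turned with 1 dam left out for Sostdc1 (-1.059 to 0.037), Otx2 (-0.646 to 0.051) and Nfe2l2 (-0.035 to 0.426), and without dams 12 and 15 for Myh11 (0.026), Col3a1 (-0.007), Otx2 (0.021), Erbb3 (0.033) and Ppard (0.023). The causes were not tested, beyond the smaller number of dams. The number of arrays limits the precision, and genes near the filter level, such as most named with a negative difference, have the least signal over background.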
